A study of Mus musculus with 2 samples.

Results

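The genes described here are 10 that restrain the cell cycle or respond to stress, taken by name from the 32285 genes counted in single-cell libraries of mouse cerebellum. They are the CIP/KIP inhibitors of cyclin-dependent kinases (Cdkn1a, Cdkn1b and Cdkn1c), the INK4 inhibitors (Cdkn2a, Cdkn2b, Cdkn2c and Cdkn2d) and the Gadd45 genes (Gadd45a, Gadd45b and Gadd45g), and all 10 had UMIs in both libraries. The mutant library came from embryos that carried Blbp-cre together with the alleles Ctnnb1(ex3)fl/wt and Smarca4fl/fl. In such embryos Cre driven by the Blbp (Fabp7) promoter acts in radial glia and the cells they give rise to, where it removes the exon through which beta-catenin is marked for destruction and deletes the chromatin remodeller Smarca4. The control library came from embryos recorded as cre-negative, with no statement on their floxed alleles. Both are of age E16.5 and hold all cells of the cerebellum after digestion, with 7-AAD-stained dead cells sorted out, and each library was made from a pool of 3 samples, of which 40000 cells were loaded. Single animals can therefore not be told apart. Every interval below is a 95% interval that covers counting error only, and with 1 library per genotype no test between genotypes was made.

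CIP/KIP proteins bind cyclin and kinase together and can hold cells in G1, whereas INK4 proteins bind CDK4 and CDK6 and keep them from cyclin D, so that the retinoblastoma protein stays active. Gadd45 proteins bind PCNA, CDK1 and the stress kinase MAP3K4, and are induced by damage, cytokines or proneural factors. In the developing brain Cdkn1b, Cdkn1c and Gadd45g accompany neurons leaving the cycle, while Cdkn2a and Cdkn2b are held silent by Polycomb proteins in most embryonic cells. The question asked of each gene was whether it marked the mutant cells with an active Wnt readout, and how it stood to cycling. The Wnt readout was Wif1, a secreted Wnt antagonist that beta-catenin can induce, and cycling was read from the proliferation genes Mki67 and Top2a.

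The mutant library kept 15864 cells with a median of 9714 UMIs, and the control library kept 15969 cells with a median of 10016 UMIs. Smarca4 stood at 49.5 CPM (UMIs of a gene, scaled to a common total per set of cells) in mutant and 68.2 CPM in control cells, but tags from the 3′ end may lie outside the deleted part, so this level does not check the deletion. At least 2 Wif1 UMIs were found in 4825 mutant cells (30.4%) and in 68 control cells (0.426%). These 4825 are called Wif1-high below, and the 9285 mutant cells with 0 Wif1 UMIs are called Wif1-zero. Median depth was 11079 UMIs in Wif1-high and 9033 UMIs in Wif1-zero cells, so shares of cells with a gene are given after thinning to 3000 UMIs unless stated. Thinning left out cells below that depth, namely 244 Wif1-high, 1526 Wif1-zero and 2396 control cells. The libraries shared 123 barcodes, of which 64 were among the kept cells of each. Clusters named by their markers are written with the ending -like, and progenitor-like stands for neural progenitor or astroglial-like. Cerebellar types were present, namely granule neuron-like, unipolar brush cell-like and, in the control library, GABAergic interneuron-like clusters, beside brainstem neuron-like and midbrain neuron-like ones. In 8 clusters, called mutant-dominated below, the share of mutant cells was at least 5 times that of control cells. With 1 library per genotype, the mutation and the library cannot be told apart in any cluster.

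Coordinates are those of GRCm38 in GENCODE vM21. Cdkn1a lies at chr17:29090976-29100727 on the plus strand. Cdkn2a (chr4:89274471-89294653) and Cdkn2b (chr4:89306299-89311039) are neighbours on the minus strand, 11645 bases apart. Cdkn2a encodes p16INK4a and, from another first exon and reading frame, p19ARF, which stabilises p53. The transcripts share their 3′ end, so these counts do not separate them. Gadd45g lies at chr13:51846678-51848468 and Gadd45b at chr10:80930073-80932204, both on the plus strand. Cdkn1a overlaps AC167363.2, Cdkn1c (chr7:143458339-143461050, minus strand) overlaps Gm44732 and Gadd45a (chr6:67035096-67037457, minus strand) overlaps E230016M11Rik, each on the other strand. The longest exact run shared by the transcripts of any pair of members was 23 bases.

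The stretches just upstream of the 5 genes with the largest differences by Wif1 are shown, because these genes were set against a Wnt readout. Each is the 200 bases from 250 to 51 before a RefSeq start site on GRCm38.p6, written 5′ to 3′ on the gene's strand. Capitals mark GGGCGG (the GC box), CCAAT and the TCF/LEF core CTTTGA, on either strand. The windows are chr17:29090729-29090928 (plus) for the distal start of Cdkn1a, chr4:89294670-89294869 (minus) for the distal start of Cdkn2a and chr4:89311083-89311282 (minus) for Cdkn2b. They are chr13:51846425-51846624 (plus) for Gadd45g and chr10:80929841-80930040 (plus) for Gadd45b.
Cdkn1a: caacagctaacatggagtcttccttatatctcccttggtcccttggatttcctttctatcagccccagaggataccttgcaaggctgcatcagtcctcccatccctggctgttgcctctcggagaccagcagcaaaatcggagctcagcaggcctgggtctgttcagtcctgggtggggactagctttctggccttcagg
Cdkn2a: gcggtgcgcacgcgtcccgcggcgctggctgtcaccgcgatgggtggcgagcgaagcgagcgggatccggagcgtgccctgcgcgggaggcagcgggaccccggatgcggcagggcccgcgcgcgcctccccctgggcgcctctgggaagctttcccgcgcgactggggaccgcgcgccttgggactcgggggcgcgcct
Cdkn2b: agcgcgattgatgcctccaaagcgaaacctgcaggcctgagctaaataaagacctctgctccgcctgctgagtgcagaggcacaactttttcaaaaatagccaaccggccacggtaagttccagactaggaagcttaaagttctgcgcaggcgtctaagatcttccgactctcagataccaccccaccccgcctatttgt
Gadd45g: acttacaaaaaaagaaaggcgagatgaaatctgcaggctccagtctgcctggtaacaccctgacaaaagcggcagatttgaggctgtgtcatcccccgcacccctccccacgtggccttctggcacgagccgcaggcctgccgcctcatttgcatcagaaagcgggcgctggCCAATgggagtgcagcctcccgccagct
Gadd45b: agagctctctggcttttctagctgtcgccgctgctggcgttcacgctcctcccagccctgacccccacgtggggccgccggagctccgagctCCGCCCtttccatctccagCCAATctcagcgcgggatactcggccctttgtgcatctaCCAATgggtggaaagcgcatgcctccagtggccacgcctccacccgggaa
RefSeq entries matched 9 of the 10 genes, with 12 start sites, and Cdkn1c is named only. CTTTGA stood in 0 of the 12 windows, against 11.8% of the 32851 windows of all genes. GGGCGG stood in 6 of 12 member windows and 24.6% of all windows, and CCAAT in 5 of 12 member windows and 28.4% of all windows. The E-box CANNTG stood in 4 of 12 member windows and 59.0% of all windows, and TATAAA in 0 of 12 member windows and 9.14% of all windows. The windows of Cdkn1a, Cdkn2a and Cdkn2b printed here carry none of the letters in capitals. That of Gadd45g carries a single CCAAT, and that of Gadd45b carries 2 CCAAT and a GC box. The window of the other Cdkn1a start, not printed, carries a GC box, and that of the other Cdkn2a start carries none of these letters. These are matches of letters in short windows. The windows end 51 bases before the start site, so a TATA box or other motif nearer to it is not counted.

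Over all cells, 4 members stood higher in the mutant than in the control library and 0 stood lower. A gene was read at 10 CPM or more in either set, and counted as higher or lower at a 1.5-fold ratio of CPM + 1 with a counting interval on 1 side of 1. Of 9785 genes so read, 8.21% were called higher and 5.84% lower in the mutant library, and 9 members were read. The 4 higher members were Cdkn1a (114 CPM in mutant cells and 23.5 CPM in control cells), Cdkn2b (15.8 CPM in mutant cells and 1.22 CPM in control cells), Gadd45g (169.7 CPM in mutant cells and 67.3 CPM in control cells) and Cdkn1c (338 CPM in mutant cells and 151 CPM in control cells). Cdkn2a stayed under 10 CPM, with 1064 UMIs in mutant and 27 UMIs in control cells, a ratio of 40.0 (27.3 to 60.9). The other 5 lay between a ratio of 0.777 for Cdkn2d (44.7 CPM in mutant cells and 57.5 CPM in control cells) and 1.03 for Cdkn1b (71.5 CPM in mutant cells and 69.3 CPM in control cells). In such sums, more cells of a type and more RNA per cell cannot be told apart.

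Outside the 8 mutant-dominated clusters, 7181 mutant and 15802 control cells remained, and 2 of the 8 members read were higher, against 5.86% of all genes higher and 3.31% lower. Cdkn1c had 341 CPM in mutant cells and 149 CPM in control cells there. Cdkn1a had 38.5 CPM in mutant cells and 23.6 CPM in control cells. Gadd45g, at 92.1 CPM in mutant cells and 67.7 CPM in control cells, had a ratio of 1.36 and was no longer called. The difference in Cdkn1c was thus as large without the mutant-dominated clusters, while those in Cdkn1a and Gadd45g were smaller.

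**Figure D1:**
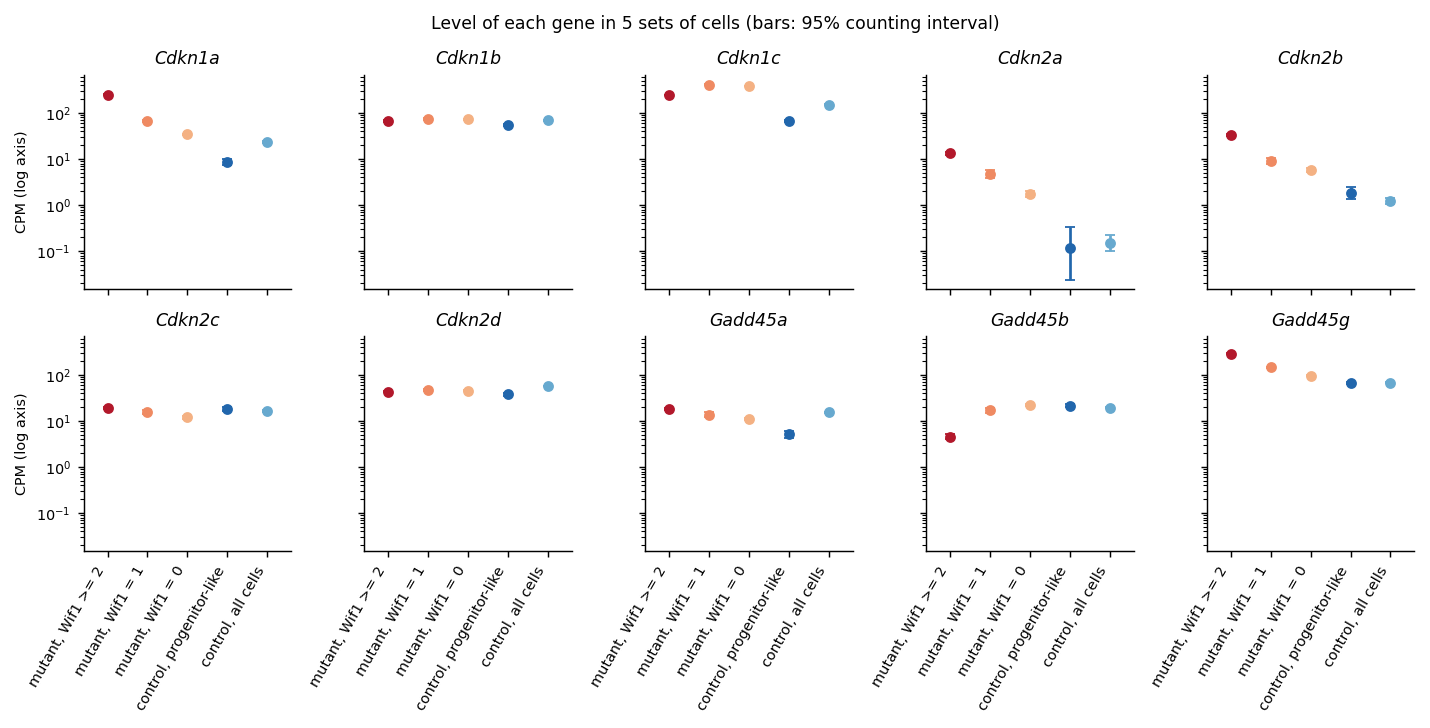
Level of each of the 10 genes (CPM, log axis) in mutant cells with at least 2, with 1 and with 0 Wif1 UMIs, in control progenitor-like cells and in all control cells; bars are 95% counting intervals. Cdkn1a stands at 250.5 CPM in the first set and 34.2 CPM in the third, and Gadd45b at 4.58 CPM in the first and 22.2 CPM in the third.

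Within the mutant library, 6 of the 10 genes were higher in Wif1-high than in Wif1-zero cells and 2 were lower. Of all 9841 genes read, 7.53% were called higher and 9.81% lower, and the median log2 ratio was 0.64 over the members and 0.12 over all genes. Cdkn1a, which encodes p21 and is a well known p53 target, had 250.5 CPM (246.5 to 254.5) in Wif1-high and 34.2 CPM (33.0 to 35.4) in Wif1-zero cells, a ratio of 7.33 (7.06 to 7.62). Only 7 genes had a larger log2 ratio, Wif1 itself among them. A Cdkn1a UMI was held by 20.0% of Wif1-high and 6.15% of Wif1-zero cells at equal depth. The other CIP/KIP genes did not follow Cdkn1a. Cdkn1b (p27), an inhibitor of quiescent and differentiating cells, had 67.1 CPM in Wif1-high and 73.7 CPM in Wif1-zero cells and was not called. Cdkn1c (p57), an imprinted inhibitor, was lower, with 247 CPM in Wif1-high and 383 CPM in Wif1-zero cells, a ratio of 0.644 (0.632 to 0.656). Thinned cells held Cdkn1c in 29.7% of Wif1-high and 33.9% of Wif1-zero cells.

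The neighbouring INK4 genes of chromosome 4 were both higher. Cdkn2a had 13.3 CPM (811 UMIs) in Wif1-high and 1.76 CPM (166 UMIs) in Wif1-zero cells, a ratio of 7.52 (6.36 to 8.95). Cdkn2b, which encodes p15 and is known as a TGF-beta target, had 33.1 CPM in Wif1-high and 5.80 CPM in Wif1-zero cells, a ratio of 5.71 (5.20 to 6.29). Both were found in few cells at equal depth. Cdkn2b was held by 6.79% of Wif1-high and 1.22% of Wif1-zero cells, and Cdkn2a by 2.53% of Wif1-high and 0.284% of Wif1-zero cells. Cdkn2c (p18) was just past the limit, with 19.0 CPM in Wif1-high and 12.0 CPM in Wif1-zero cells, a ratio of 1.59. Cdkn2d (p19INK4d), which neurons keep after their last division, had 43.1 CPM in Wif1-high and 45.3 CPM in Wif1-zero cells and was not called.

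The Gadd45 genes split. Gadd45g, a target of proneural factors, had 289.7 CPM in Wif1-high and 96.3 CPM in Wif1-zero cells, a ratio of 3.01 (2.93 to 3.09). It was held by 37.1% of Wif1-high and 17% of Wif1-zero cells. Gadd45a, a p53 target, had 17.9 CPM in Wif1-high and 11.1 CPM in Wif1-zero cells, a ratio of 1.62. Gadd45b, induced by TGF-beta and NF-kappaB signals and by neuronal activity, was lower, with 4.58 CPM in Wif1-high and 22.2 CPM in Wif1-zero cells, a ratio of 0.206 (0.181 to 0.234). Of 11 immediate early and dissociation genes read, 7 were also lower, Fos among them (147 CPM in Wif1-high and 339.9 CPM in Wif1-zero cells), and their part in the Gadd45b difference was not tested. Without the non-neural classes the log2 ratio of Gadd45b was −1.35, against −2.06 with them, and within the mutant-dominated clusters it was −0.87, where Gadd45b was under 10 CPM in both sets and so was not read.

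Scaling by the median gene shifts this comparison by 0.13 (log2). Relative to it Cdkn2c and Gadd45a were no longer called, while Cdkn1a, Cdkn2a, Cdkn2b and Gadd45g were still higher. Erythroid-like cells, which should lack Wif1 and in the mutant library had 84.2% haemoglobin UMIs, also carried these genes. They held at least 2 Wif1 UMIs in 16.1% of 416 mutant cells, and Cdkn1a stood there at 27.4 CPM in mutant cells and 0.226 CPM in control cells, at median depths of 19424 UMIs in mutant and 19210 UMIs in control cells. Thinned mutant erythroid-like cells held Cdkn1a in 2.89% and Gadd45g in 5.54% of cells. The source of these UMIs, and their part in the values of other cells, was not tested.

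**Figure D2:**
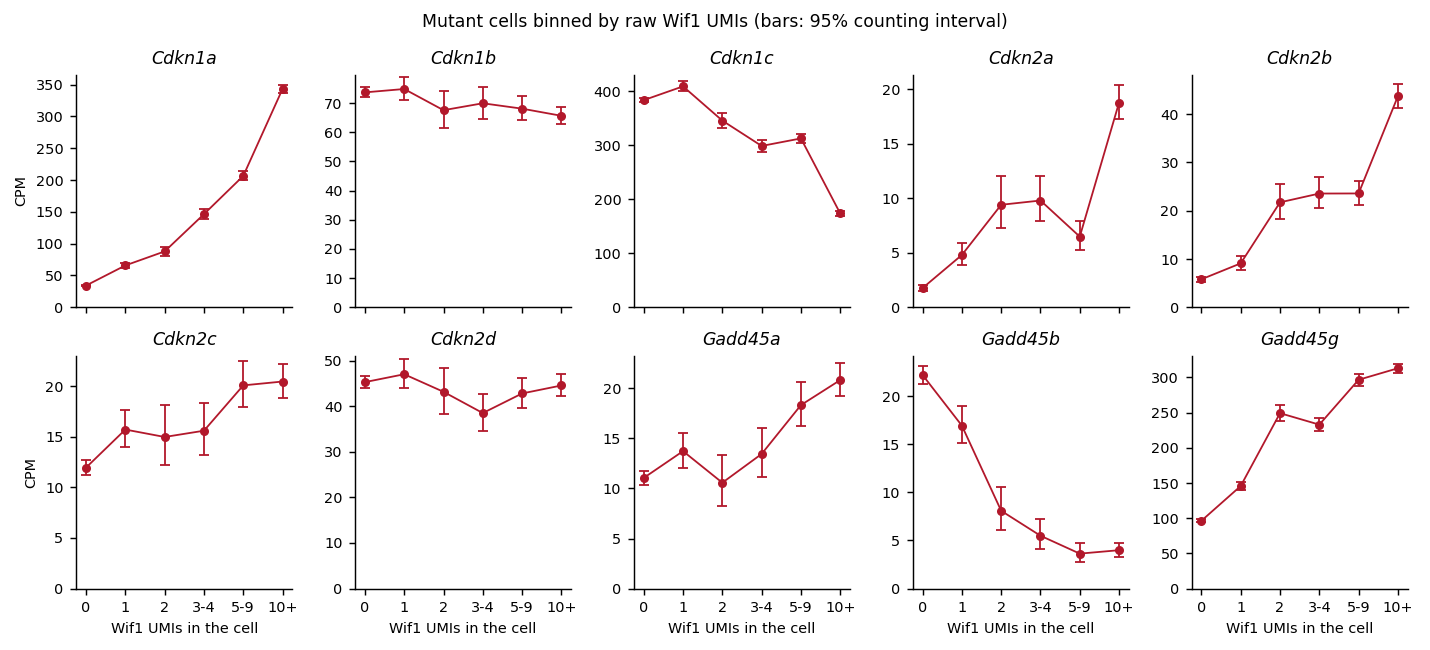
Level of each gene (CPM) in mutant cells binned by raw Wif1 UMIs per cell (0, 1, 2, 3 to 4, 5 to 9, and 10 or more); bars are 95% counting intervals. Cdkn1a is higher in each bin than in the one before and reaches 343 CPM, and Gadd45b is lowest at 3.63 CPM with 5 to 9 Wif1 UMIs.

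The number of Wif1 UMIs in a cell gives a graded view. Over 0, 1, 2, 3 to 4, 5 to 9 and 10 or more UMIs, Cdkn1a stood at 34.2, 65.8, 87.8, 146, 207 and 343 CPM. No pair of neighbouring bins had overlapping intervals for Cdkn1a. Over the same bins Cdkn2b stood at 5.80, 9.10, 21.7, 23.6, 23.6 and 43.7 CPM, with a level stretch in the middle. Cdkn2a stood at 1.76, 4.80, 9.40, 9.79, 6.48 and 18.8 CPM, so it did not follow the bins at every step. Gadd45g stood at 96.3, 146, 249, 233, 297 and 313 CPM, with most of its difference present at 2 UMIs. Cdkn1c was lowest in the last bin, with 383, 409, 346, 299, 313 and 174 CPM. Cdkn1b (65.7 to 74.8 CPM) and Cdkn2d (38.5 to 47.0 CPM) stayed within a narrow range. The bins differ in depth, with a median of 9033 UMIs per cell in the first and 12752.5 in the last.

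Of the Wif1-high cells 39.0% lay in cluster 2, 25.7% in cluster 0, 9.22% in cluster 10 and 7.50% in cluster 11, all of them mutant-dominated. Cluster 2, led by Pycr1, Gna14 and Lgr6 and not named by the markers, had the highest Cdkn1a (363 CPM), Cdkn2b (45.6 CPM) and Cdkn2a (20.3 CPM) of any cluster with at least 50 cells, and Gadd45g at 431 CPM. Cluster 0, led by Fstl4 and Sorcs3 and also unnamed, had Cdkn1a at 237 CPM, Gadd45g at 220.3 CPM, Cdkn2b at 19.8 CPM and Cdkn2a at 8.25 CPM. Cluster 10, progenitor-like, was of another make. There Cdkn2b stood at 35.9 CPM and Cdkn2a at 9.69 CPM, but Cdkn1a at 15.8 CPM and Gadd45g at 65.4 CPM. Cluster 11, led by Ccnb2 and histone genes, had Cdkn2c at 62.0 CPM and Cdkn1a at 59.6 CPM. High Cdkn2b thus occurred both with and without high Cdkn1a.

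**Figure D3:**
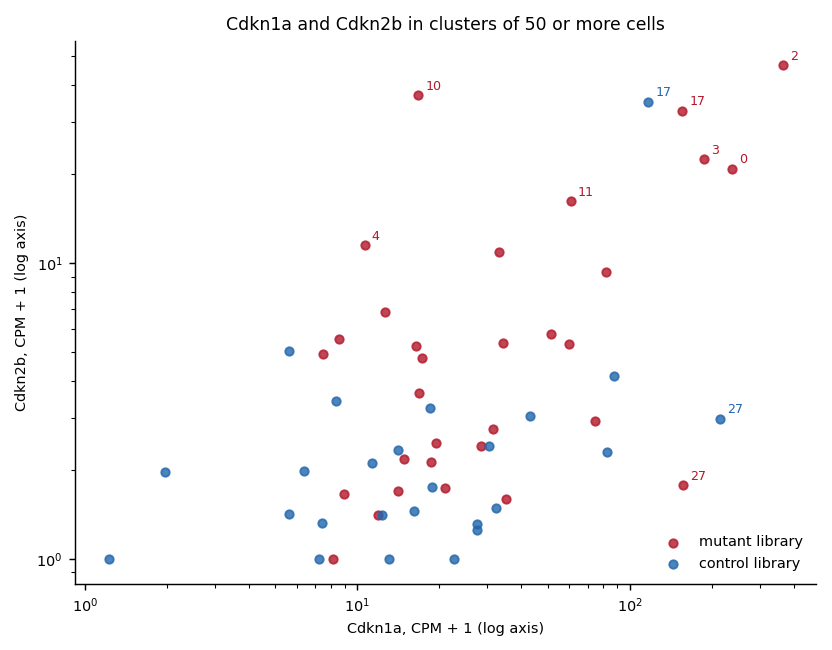
Cdkn1a (horizontal) against Cdkn2b (vertical), both as CPM + 1 on log axes, for each cluster with 50 or more cells in a library, with the mutant and control libraries in different colours and cluster numbers at the points with Cdkn2b of 10 CPM or Cdkn1a of 100 CPM or more. Mutant clusters 0 and 2 are high in both genes, and mutant cluster 10 is high in Cdkn2b (35.9 CPM) with Cdkn1a at 15.8 CPM.

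Wif1-high and Wif1-zero cells could be compared within 12 mutant clusters. Cdkn1a was higher in 10 of them and lower in 1, Cdkn2b was higher in all 7 where it was read, and Gadd45g was higher in 8 and lower in 1. The share of all genes called higher in these clusters ran from 2.56% to 95.9%, the last in the erythroid-like cluster, with a median of 5.83%. The erythroid-like cluster is among the 10 for Cdkn1a and the 8 for Gadd45g. There the median log2 ratio was 1.64 over the members and 2.25 over all genes. In cluster 2, where 2.56% of all genes were higher and 2.96% lower, Cdkn1a had 418 CPM in Wif1-high and 165 CPM in Wif1-zero cells. Cdkn2b there had 53.1 CPM in Wif1-high and 24.5 CPM in Wif1-zero cells. Gadd45g was level in cluster 2, with 432 CPM in Wif1-high and 425 CPM in Wif1-zero cells. It differed in cluster 10, with 103 CPM in Wif1-high and 39.3 CPM in Wif1-zero cells, and in cluster 11, with 241 CPM in Wif1-high and 62.6 CPM in Wif1-zero cells. Cdkn1c in cluster 2 had 316 CPM in Wif1-high and 868 CPM in Wif1-zero cells.

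In cluster 0, where 4.05% of all genes were higher and 2.22% lower, Cdkn1a had 310.0 CPM in Wif1-high and 67.1 CPM in Wif1-zero cells. In cluster 11, where 7.99% were higher and 12.3% lower, Cdkn1a had 71.6 CPM in Wif1-high and 21.1 CPM in Wif1-zero cells. In cluster 10, where 4.01% were higher and 5.45% lower, Cdkn2b had 58.6 CPM in Wif1-high and 21.8 CPM in Wif1-zero cells. Cdkn2a followed Cdkn2b in cluster 10, with 17.7 CPM in Wif1-high and 4.94 CPM in Wif1-zero cells, and Cdkn1a had 19.3 CPM in Wif1-high and 10.7 CPM in Wif1-zero cells. Gadd45b was lower in all 4 clusters where it was read (3, 4, 10 and 11), of which cluster 3 had 14.2% and cluster 4 had 11.6% of all genes lower. Over the 12 clusters the share of all genes lower ran from 1.18% to 14.2%. Cdkn1c was higher in 2 clusters, cluster 11 and the erythroid-like cluster, and lower in 3.

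Set against control progenitor-like cells, Wif1-high cells differed widely. The 2392 control cells of that class lay in cluster 4 and cluster 6 for the most part, which held 1.12% and 0.622% of the Wif1-high cells, and 18.1% of 10198 genes were higher and 20.7% lower in Wif1-high cells. Of the 10 members 6 were higher and 1 lower. Cdkn1a had 250.5 CPM in Wif1-high and 8.58 CPM in control progenitor-like cells, a ratio of 29.2 (25.5 to 33.5). Cdkn2a had 811 UMIs in Wif1-high and 3 UMIs in control progenitor-like cells, a ratio of 113 with an interval from 38.5 to 548. Cdkn2b had 33.1 CPM in Wif1-high and 1.84 CPM in control progenitor-like cells, a ratio of 18.0 (13.5 to 24.6). Next by ratio were Gadd45g (4.45), Cdkn1c (3.67) and Gadd45a (3.52), and Gadd45b was lower (0.214). The order put the INK4 pair and Cdkn1a well ahead of the rest. The 68 control cells with at least 2 Wif1 UMIs held 15 Cdkn1a UMIs (15.7 CPM) and 0 UMIs of Cdkn2a and Cdkn2b, which allows up to 3.14 CPM of each.

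Between genotypes, 3 of the 8 members read were higher in the 2513 mutant than in the 2392 control progenitor-like cells, where 5.96% of all genes were higher and 7.94% lower. Cdkn2b had 20.3 CPM in mutant cells and 1.84 CPM in control cells, a ratio of 11 (8.17 to 15.1). Cdkn1c had 203 CPM in mutant cells and 67.2 CPM in control cells. Cdkn1a had 13.8 CPM in mutant cells and 8.58 CPM in control cells, and Cdkn2a, under 10 CPM and so not read, had 4.99 CPM in mutant cells and 0.118 CPM in control cells. Cluster 10 held 1277 of these mutant cells and 0 control cells, so the class is not made of the same clusters in both libraries, and with coarser or finer clustering, where its cells left the class, Cdkn2b was not called. In cluster 4, which both libraries fill, Cdkn2b had 10.5 CPM in mutant cells and 1.11 CPM in control cells. Cdkn1a (9.64 CPM in mutant cells and 10.3 CPM in control cells) and Cdkn1c (69.5 CPM in mutant cells and 95.4 CPM in control cells) were not called in cluster 4. In cluster 6, also filled by both, Cdkn1a had 15.5 CPM in mutant cells and 7.38 CPM in control cells, and Cdkn1c had 94.2 CPM in mutant cells and 39.0 CPM in control cells. Cdkn2b was not read in cluster 6, at 4.25 CPM in mutant cells and 2.41 CPM in control cells, so each of the 3 differences was called in 1 of these 2 clusters.

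**Figure D4:**
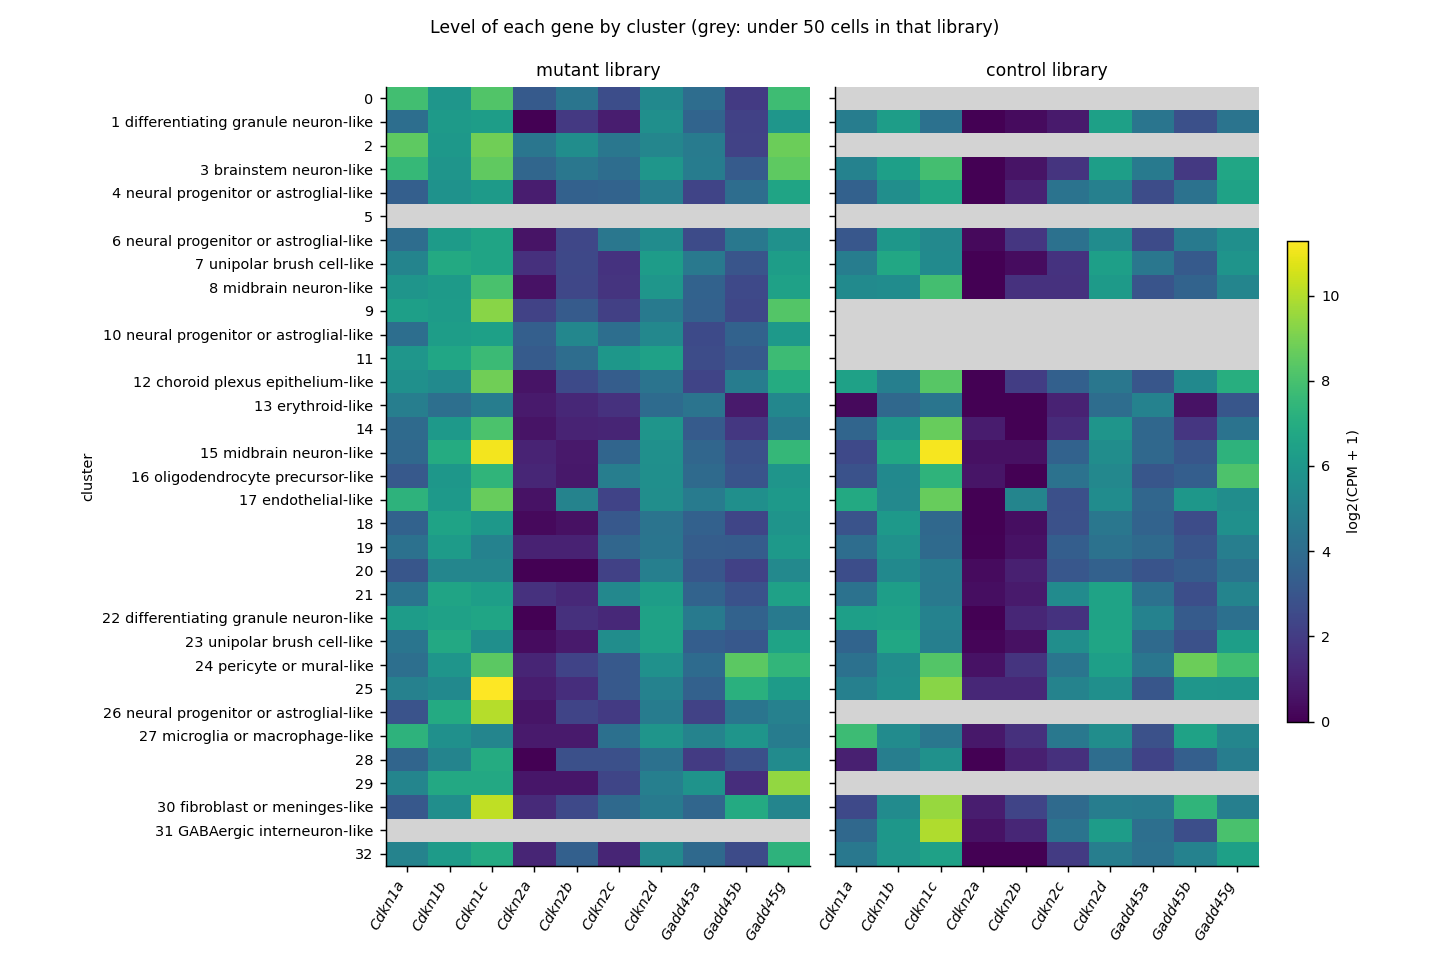
Level of each gene as log2(CPM + 1), shown by colour, in every cluster (rows) of the mutant library and of the control library; clusters of under 50 cells in a library are grey. Cdkn1c is strongest in mutant cluster 25 (2507 CPM) and in cluster 15 of both libraries, and Cdkn2a is at most 1.41 CPM in every control row.

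The other cell types set the range of each gene. Cdkn1c was highest in mutant cells of cluster 25, with 2507 CPM in mutant cells and 617 CPM in control cells, and in cluster 15, midbrain neuron-like, with 2216 CPM in mutant cells and 2256 CPM in control cells. Control GABAergic interneuron-like cells had Cdkn1c at 996 CPM. Cdkn1c was higher in the mutant cells of 13 of the 24 clusters compared and lower in 0, with a median of 4.33% of all genes higher over these clusters. Cdkn2b in the control library was highest in endothelial-like cells, with 31.7 CPM in mutant cells and 34.2 CPM in control cells. Cdkn1a was well above zero in cell types of both libraries. Endothelial-like cells had Cdkn1a at 155 CPM in mutant cells and 116 CPM in control cells, and microglia or macrophage-like cells at 156 CPM in mutant cells and 213 CPM in control cells. Gadd45b was highest in pericyte or mural-like cells, with 344 CPM in mutant cells and 429 CPM in control cells. Brainstem neuron-like cells, of which 27.1% in the mutant library were Wif1-high, had Cdkn1a at 186 CPM in mutant cells and 31.3 CPM in control cells, with median depths of 5750.5 UMIs in mutant and 9742 UMIs in control cells. In that class 16.1% of all genes were higher and 23.4% lower in mutant cells, and finer clustering kept 138 mutant and 386 control cells in it.

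Cdkn2c was the member with the largest ratio between cycling and non-cycling cells in both libraries. At least 1 Mki67 or Top2a UMI was found in 23.9% of mutant and 37.2% of control cells, and in 15.4% of mutant and 25.7% of control cells at equal depth. In the control library Cdkn2c had 30.8 CPM in cycling and 3.56 CPM in non-cycling cells, a ratio of 8.66 (7.71 to 9.74). It was the 1 higher member of 8 read, against 8.03% of all genes higher and 10.3% lower. The 2 lower members were Cdkn1c (89.9 CPM in cycling and 206 CPM in non-cycling cells) and Gadd45b (13.3 CPM in cycling and 25.1 CPM in non-cycling cells). These sums pool cell types. Within 18 control clusters Cdkn1c was higher in cycling cells in 3 and lower in 5. Gadd45b was higher in 1 and lower in 2 of the 9 where it was read. Over the 18 clusters the median share of all genes was 7.11% higher and 2.82% lower in cycling cells. In the mutant library 1 of 9 members read was higher and 3 were lower, against 7.39% of all genes higher and 5.46% lower. Cdkn2c had 29.4 CPM in cycling and 7.91 CPM in non-cycling mutant cells. Cdkn1a had 69.7 CPM in cycling and 135 CPM in non-cycling mutant cells, Cdkn1c had 209.8 CPM in cycling and 399.0 CPM in non-cycling ones, and Cdkn2b had 10.5 CPM in cycling and 18.3 CPM in non-cycling ones. Cdkn2b was not read in the control library. Cdkn1a in control cells and Gadd45b in mutant cells missed the limit by little, with ratios of 0.686 and 0.708. In mutant cells Gadd45a (log2 ratio −0.53) and Gadd45g (−0.49) came nearer to the limit than Gadd45b (−0.47). The difference between libraries was not tested.

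In control progenitor-like cells, where 6.05% of all genes were higher in cycling cells and 2.31% lower, 2 members were higher and 0 lower. Cdkn2c had 40.4 CPM in cycling and 4.398 CPM in non-cycling cells. Cdkn2d had 54.2 CPM in cycling and 27.4 CPM in non-cycling cells. Cdkn1c was not called there, with 75.6 CPM in cycling and 62.1 CPM in non-cycling cells. Within clusters Cdkn2c was higher in cycling cells in 6 of the 10 mutant clusters and in all 11 control clusters where it was read, with medians of 7.16% of all genes higher over the mutant clusters and 7.11% over the control clusters. Graded by Mki67 and Top2a UMIs (0, 1, 2 to 4, 5 to 9, and 10 or more), Cdkn2c stood at 7.91, 8.72, 17.6, 36.3 and 51.8 CPM in mutant cells. In control cells it stood at 3.56, 6.42, 15.8, 34.0 and 49.5 CPM. The libraries were furthest apart, by ratio, in cells with no proliferation UMI. Cdkn2d was highest in the last bin, with 90.6 CPM in mutant cells and 105 CPM in control cells.

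**Figure D5:**
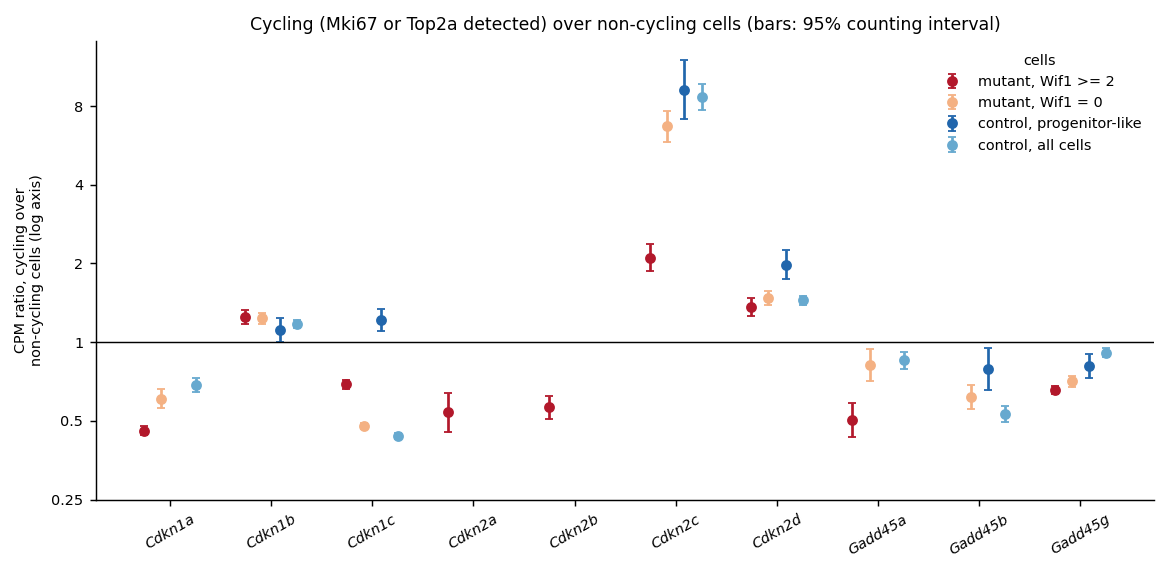
CPM ratio of cycling (Mki67 or Top2a detected) over non-cycling cells for each gene on a log axis, in Wif1-high mutant, Wif1-zero mutant, control progenitor-like and all control cells; bars are 95% counting intervals, and a gene under 10 CPM in both sets has no point. Cdkn2c lies above 1 in every set, from 2.11 in Wif1-high to 9.19 in control progenitor-like cells, and Cdkn1a lies at 0.458 in Wif1-high cells.

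Of the 6 genes higher in Wif1-high cells, 5 were lower in the cycling cells among them and Cdkn2c was higher. At equal depth 16.3% of Wif1-high and 14.8% of Wif1-zero cells were cycling. Between cycling and non-cycling Wif1-high cells, 1 of the 9 members read was higher and 5 were lower, where 8.3% of all genes were higher and 3.21% lower. Cdkn1a had 142 CPM in cycling and 309 CPM in non-cycling Wif1-high cells, a ratio of 0.458. Gadd45a (0.504), Cdkn2a (0.539), Cdkn2b (0.564) and Gadd45g (0.657) were the others. Cdkn2c was the higher one, with 28.9 CPM in cycling and 13.7 CPM in non-cycling Wif1-high cells. These sums pool clusters that differ in level, such as cluster 11 (97.0% cycling, Cdkn1a at 59.6 CPM) and cluster 2 (16.8% cycling, Cdkn1a at 363 CPM). Within single mutant clusters, over all their cells, Cdkn1a was lower in cycling cells in 5 of the 16 where it was read and higher in 1. Cluster 2 was among the 5, with 226 CPM in cycling and 397 CPM in non-cycling cells, cluster 0 was not called, with 205 CPM in cycling and 247 CPM in non-cycling cells, and cluster 9 was the higher one, with 189.6 CPM in cycling and 51.6 CPM in non-cycling cells. Gadd45g was lower in 7 of 17 clusters and higher in 1, and Gadd45a was lower in 4 of 12 and higher in 1. Cdkn2b was lower in 2 of 5 and Cdkn2a in 1 of 3, with 0 higher for both. Over the 17 mutant clusters the share of all genes lower in cycling cells ran from 0.473% to 12.4%, with a median of 3.15%. The median share of all genes higher was 7.16%. Among Wif1-zero cells, where 8.4% of all genes were higher and 8.42% lower in cycling cells, Cdkn2c was again higher and Cdkn1a, Cdkn1c and Gadd45b were lower.

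The Wif1 differences in Cdkn1a, Cdkn2b, Gadd45g and Gadd45b were called on both sides of the cycling gate. Those in Cdkn2c, Gadd45a and Cdkn1c were called in non-cycling cells only. Cdkn2a was called in non-cycling cells and was not read in cycling ones. In non-cycling cells (3508 Wif1-high and 7215 Wif1-zero), 6 members were higher and 2 lower, against 7.52% of all genes higher and 11.5% lower. Cdkn1a had 309 CPM in Wif1-high and 38.8 CPM in Wif1-zero non-cycling cells. In cycling cells (1317 Wif1-high and 2070 Wif1-zero), 3 members were higher and 1 lower, against 10.0% of all genes higher and 7.32% lower. Cdkn1a had 142 CPM in Wif1-high and 23.6 CPM in Wif1-zero cycling cells. Cdkn2b had 22.05 CPM in Wif1-high and 3.02 CPM in Wif1-zero cycling cells, and Gadd45g had 216 CPM in Wif1-high and 75.0 CPM in Wif1-zero ones. Cdkn2c was level in cycling cells, with 28.9 CPM in Wif1-high and 29.2 CPM in Wif1-zero cells, while in non-cycling cells it had 13.7 CPM in Wif1-high and 4.36 CPM in Wif1-zero cells.

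Cell by cell at equal depth, 10.9% (8.96 to 13.1) of the 917 Wif1-high cells with a Cdkn1a UMI were cycling, against 17.7% (16.4 to 18.9) of the 3664 without. For Gadd45a the shares were 5.74% of 209 cells with it and 16.8% of 4372 without, the lowest share with any member. For Gadd45g they were 13.6% of 1700 cells with it and 17.9% of 2881 without. Cdkn2c and Cdkn2d went the other way. Of 220 cells with Cdkn2c 35.9% were cycling, against 15.3% of 4361 without, and of 519 cells with Cdkn2d 24.5% (20.8 to 28.4) were cycling, against 15.3% (14.2 to 16.4) of 4062 without. The shares were 18.9% with and 15.8% without for Cdkn1b, and 26.7% of only 45 cells with and 16.2% without for Gadd45b. They were 15.5% with and 16.3% without for Cdkn2a, and 13.8% with and 16.49% without for Cdkn2b. For Cdkn1c they were 15.7% with and 16.6% without. In these remaining members the intervals with and without the gene overlapped. Overlap alone does not show the absence of a difference, and the differences themselves were not tested. All these shares pool clusters that differ both in cycling and in the level of the genes. At equal depth 86.9% of mutant cells in cluster 11 were cycling, and 52 of 503 held Cdkn1a. In cluster 2 the share cycling was 7.56%, and 565 of 2446 held Cdkn1a. The shares by gene were not split by cluster.

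Cdkn2a and Cdkn2b were often found in the same cells. Of the 116 thinned Wif1-high cells with Cdkn2a, 59.5% (49.97 to 68.5) also held Cdkn2b, against 5.42% (4.77 to 6.12) of the 4465 without Cdkn2a. A gap in the same direction was seen over all mutant cells of single clusters, with few Cdkn2a cells in each. In cluster 0 the share with Cdkn2b was 57.1% (37.2 to 75.5) of 28 cells with Cdkn2a and 3.12% of those without. It was 59.7% (47.5 to 71.1) of 72 with and 6.02% without in cluster 2. In cluster 10 it was 55.6% (30.8 to 78.5) of 18 with and 5.55% without. In cluster 11 it was 38.5% (13.9 to 68.4) of 13 with and 3.67% without. Among all Wif1-zero cells it was 36.4% (17.2 to 59.3) of 22 with and 1.12% without. The gap was smaller for Cdkn1a and Cdkn2b. Cdkn2b was held by 8.18% of Wif1-high cells with Cdkn1a and 6.44% of those without. Gadd45g was held by 50.2% of Wif1-high cells with Cdkn1a and 33.8% of those without. These cells pool clusters that differ in the level of both genes. Over all mutant cells of cluster 2 the shares were 54.9% with and 44.6% without Cdkn1a. They were 45.8% and 28.4% in cluster 0, and 44.2% and 29.5% in cluster 11. In cluster 10 the share was lower with Cdkn1a, at 9.38% of only 32 cells, against 12.5% without.

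Over 56 units of cluster and library, the genes most like a member in level were found by Pearson's r of log2(CPM + 1), a description of units that share library and depth. Nearest to Cdkn1a were Nfil3 (0.707), Cotl1 (0.641) and Atp6v1e1 (0.632). Nearest to Cdkn2b were the transcription factor gene Sox17 (0.825), the Wnt feedback gene Notum (0.771) and Adam10 (0.754). Sox17 is known as an endothelial gene, but under finer clustering it also led an unnamed cluster of 864 mutant cells and 1 control cell. Cdkn2c lay nearest to the mitotic genes Ccnb2 (0.880), Spc25 (0.875) and Mad2l1 (0.875). Gadd45b lay nearest to Cebpb (0.895), Eva1b (0.883) and Socs3 (0.882), and Gadd45g to Aamdc (0.692), the proneural gene Neurog2 (0.687) and Aard (0.671). For Cdkn1b they were Ctbp1 (0.855), Ube2n (0.853) and Tsn (0.848), and for Cdkn2d Ywhah (0.788), Ubald2 (0.773) and Tubb5 (0.747). Gadd45a had the weakest matches, with Map1lc3b (0.575), Ypel3 (0.516) and Trp53i11 (0.514). Among the members themselves Cdkn2a and Cdkn2b were the closest pair (0.661).

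The surrounding pathways are read against the 7.53% of all genes that were higher and the 9.81% that were lower in Wif1-high than in Wif1-zero cells. Of 13 p53 targets read 1 was higher, the pro-apoptotic gene Pmaip1 (21.0 CPM in Wif1-high and 5.09 CPM in Wif1-zero cells), and 0 were lower, with a median log2 ratio of 0.23. Of 12 TGF-beta/SMAD genes 0 were higher and 2 lower, the target gene Id1 (64.7 CPM in Wif1-high and 112 CPM in Wif1-zero cells) and the receptor gene Tgfbr2. Of 9 repressors of the INK4 locus 1 was higher, the Polycomb gene Bmi1 (52.2 CPM in Wif1-high and 33.4 CPM in Wif1-zero cells), and 0 were lower. Of 17 G1/S genes 2 were higher, Ccne1 and the INK4 target Cdk6, and 2 lower, Ccnd3 and E2f1. Of 12 Gadd45 partners and stress kinase genes 0 were higher and 1 lower, the stress transcription factor gene Atf3 (7.997 CPM in Wif1-high and 35.2 CPM in Wif1-zero cells). Of 6 senescence-linked genes 0 were higher and 1 lower, the chemokine gene Ccl2 (2.81 CPM in Wif1-high and 19.7 CPM in Wif1-zero cells).

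Neurogenic genes went both ways, with 3 of 11 higher and 4 lower in Wif1-high cells, against 7.53% of all genes higher and 9.81% lower. Neurog2, a proneural factor gene, had 163 CPM in Wif1-high and 25.7 CPM in Wif1-zero cells. Hes6 and the Notch ligand gene Dll1 were also higher. Neurod1, a gene of differentiating granule neurons, had 59.0 CPM in Wif1-high and 169 CPM in Wif1-zero cells, and Mfng and Cbfa2t3 were lower as well. All 8 Wnt readout genes read beside Wif1 were higher, Notum, Rnf43 and Lef1 by the most, with a median log2 ratio of 2.04.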

How the data were processed

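Per the submitters' processing notes, Cell Ranger 7.0.1 and mm10 were used by the authors; the tables they deposited give UMI counts as whole numbers for every gene in every barcode, with 1 library per genotype. For intron counting and cell calling, the settings were not given in the sources used here. All barcodes held 220565819 UMIs in the mutant and 225512196 UMIs in the control library. The members and all lists were chosen with earlier results of these data known. Cells were kept with at least 1000 UMIs, 500 genes and at most 10% mitochondrial UMIs, and Scrublet (scanpy 1.11.5, expected rate 16%) removed 3.75% of mutant and 5.01% of control cells as doublets. Leiden clustering (resolution 1, 2000 variable genes, 30 components, 15 neighbours, no integration) left out the members, the gate genes and the pathway genes. A cluster was named by at least 3 enriched markers of a type. The name was withheld where leading genes pointed to another type, or at low depth with no marker among the leading genes. Some of the genes taken to point to another type were set after the clusters were seen. Raw UMIs were summed per set of cells and given as CPM. Sums have exact Poisson intervals, ratios exact conditional binomial intervals and shares exact Clopper-Pearson intervals, at 95%. They cover counting error only, since cells are not replicates, and a count of 0 was read as up to 3 counts. Scripts were tested on simulated data. The genes named are the 10 members, the gate genes, up to 3 called genes each way from each pathway list and the 3 most like genes of each member at 10 CPM, of which those of Cdkn1c are not reported here; leading genes of clusters were named to identify them. Alternatives were other cell filters, scalings, CPM minimums, folds, clusterings, Wif1 and cycling gates, thinning to 3000 UMIs and subsets of cells.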

Additional observations from a re-analysis of the deposited data

Results flagged for a closer look

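In 4 genes a named cell class was called higher in the mutant library and another was called lower, and these differences between classes were not tested. The share of all genes with such opposite calls was not counted, so the 4 have no background to be read against. Cdkn1a had a log2 ratio of 4.53 in erythroid-like cells (27.4 CPM in mutant cells and 0.226 CPM in control cells) and of −0.76 in choroid plexus epithelium-like cells (50.5 CPM in mutant cells and 86.5 CPM in control cells). Gadd45g had 2.17 in erythroid-like cells (36.0 CPM in mutant cells and 7.24 CPM in control cells) and −2.25 in oligodendrocyte precursor-like cells (58.3 CPM in mutant cells and 281 CPM in control cells). In erythroid-like cells 79.6% of the genes read were higher in the mutant library, and Wif1 stood there at 86.3 CPM in mutant cells and 0.226 CPM in control cells. Cdkn2c had 2.38 in brainstem neuron-like cells (15.6 CPM in mutant cells and 2.20 CPM in control cells), where 16.1% of the genes read were higher and 23.4% lower, and −1.24 in pericyte or mural-like cells (7.96 CPM in mutant cells and 20.2 CPM in control cells). Gadd45a had 2.24 in microglia or macrophage-like cells (31.9 CPM in mutant cells and 5.95 CPM in control cells) and −1.003 in fibroblast or meninges-like cells (12.1 CPM in mutant cells and 25.3 CPM in control cells). The brainstem neuron-like class did not hold the same cells under finer clustering, which kept 138 mutant and 386 control cells in it. Of all genes read, 2.46% were higher and 2.82% lower in mutant choroid plexus epithelium-like cells. The shares were 7.15% and 3.31% in oligodendrocyte precursor-like cells, and 3.52% and 4.03% in pericyte or mural-like cells. They were 6.96% and 5.65% in microglia or macrophage-like cells, and 3.6% and 2.98% in fibroblast or meninges-like cells.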

How the results depend on the processing

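Of 91 counts of members recomputed under alternatives, 69 stayed within 1.5 times the count reported and 22 did not. With a minimum of 50 CPM the members called higher numbered 1 between genotypes in progenitor-like cells, 0 in cycling control cells, 0 in cycling mutant cells, 2 in Wif1-high against Wif1-zero cells and 3 in Wif1-high against control progenitor-like cells, and those lower numbered 1 in cycling control cells and 1 in Wif1-high cells; fewer members reach that level. Members higher in cycling cells numbered 2 in each library with no cell filter, with cycling set at 2 UMIs and after thinning, Cdkn2d being added to Cdkn2c. Members lower in cycling cells numbered 1 in the control library with no cell filter and at 2-fold, and 0 in the mutant library at 2-fold. In Wif1-high against Wif1-zero cells 3 were higher when cycling cells alone were compared. There 1 was lower with no cell filter, at 2-fold, with Wif1 at 1 UMI or more, in cycling cells alone and in the mutant-dominated clusters alone, the last chosen after seeing the data; it was Gadd45b in the first 4 and Cdkn1c in the last. The log2 ratio of Cdkn2c in cycling cells alone was −0.016, against 0.63 in all. The cause of these changes was not tested. Keeping doublets and dropping the cell filter were not run for progenitor-like cells. No paired analysis was possible because there is 1 library per genotype. Depth limits Cdkn2a most, with 27 UMIs in the control library.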
